A study of Homo sapiens with 12 samples.

Results

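The mRNA levels of 10 genes of the NRF2 and glutathione system were followed in A375 cells, an established human melanoma cell line with a BRAF mutation. The genes were taken by symbol from a table of raw read counts (NFE2L2, KEAP1, GCLC, GCLM, GSS, GPX4, NQO1, HMOX1, TXNRD1 and SRXN1), and all 10 were found among its 44659 genes. All cells were grown in DMEM with 10% FBS, penicillin and streptomycin. In one experiment they received a combination of the BRAF inhibitor vemurafenib and the MEK inhibitor cobimetinib (MAPKi), each at 500 nM, or only the solvent DMSO, for 24 h in medium with 2 mM glutamine. In the other they were kept for 24 h in glutamine-free medium (Gln-depleted) or in the 2 mM glutamine medium (CTRL medium), without inhibitors. Each group had 3 libraries, made from RNA that the labels call cytoplasmic and that was depleted of ribosomal RNA, so that 12 libraries were compared in 2 pairs of groups with separate controls.

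NRF2, the product of NFE2L2, is a transcription factor that cells hold at a low level by binding it to KEAP1, which directs it to degradation. Oxidants and electrophiles modify KEAP1, NRF2 then accumulates, pairs with small MAF proteins and binds antioxidant response elements near genes for glutathione synthesis, quinone reduction, haem breakdown and the thioredoxin system. Glutathione is built from glutamate, cysteine and glycine, and glutamine is a main source of that glutamate in cultured cells. NRF2 is controlled largely at the protein level, which these libraries do not measure.

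Promoters were available from RefSeq (GRCh38.p14) for 8 of the 10 genes, and no sequence is shown for GSS and HMOX1. The 250 bases upstream of each of their 13 start sites were searched on both strands for the core of the antioxidant response element, TGACNNNGC. It was present in 4 of these 13 promoters, belonging to KEAP1, GCLM and TXNRD1, against 10.9% of 35116 promoters of the same length. All matches are shown with their surroundings. The promoters of NFE2L2, GCLC, GPX4, NQO1 and SRXN1 held no match, and members with and without a match were found both among those whose responses differed between the experiments and among those with no called difference. Each is written 5′ to 3′ on the strand of the gene, and capitals mark the element in either orientation.
KEAP1, chr19:10502807-10502835, minus strand: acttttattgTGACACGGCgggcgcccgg
KEAP1, chr19:10502784-10502812, minus strand: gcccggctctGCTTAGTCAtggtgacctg
GCLM, chr1:93909446-93909474, minus strand: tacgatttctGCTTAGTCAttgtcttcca
TXNRD1, chr12:104215670-104215698, plus strand: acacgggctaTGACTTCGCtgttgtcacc
TXNRD1, chr12:104286920-104286948, plus strand: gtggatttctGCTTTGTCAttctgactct
The GCLM element begins 34 bases upstream of the start site, and the same letters stand 31 bases upstream of a KEAP1 start site. The TXNRD1 elements begin 99 and 102 bases upstream of 2 separate start sites. None of these 5 stretches of 29 bases held TGACTCA, the AP-1 motif that some antioxidant response elements contain. Of all promoters, 4.2% held it within 250 bases, a longer window, so the stretches cannot be compared with that share. A match describes these letters only, and elements of this kind can lie outside the window searched.

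The libraries held from 31056296 to 40071368 counted reads, with a median of 35748567. Replicates differed by more than sampling noise, with a chi-square per degree of freedom of 4.74 to 15.6 within MAPKi and DMSO and of 39.6 to 191 within Gln-depleted and CTRL medium. The labels place the MAPKi experiment in one sequencing batch and the Gln experiment in another, and place replicate 1 of the Gln experiment in a first experimental batch and replicates 2 and 3 in a second. They do not say whether replicates are separate cultures, so p-values measure the spread between these libraries. The melanocyte lineage genes SOX10, MITF and PMEL were detected in every group, whereas MLANA, TYR and TYRP1 were at 1.53 CPM (counts scaled to the total of the library, TMM-normalized) or less in DMSO and CTRL medium. Of 6 markers of fibroblasts, keratinocytes and blood cells, KRT5 was at 0 in all 4 groups, HBB and DCN did not exceed a mean of 0.0444 CPM, and the highest was COL1A1 at a mean of 1.72 CPM with MAPKi. DUSP6, a target of the MAPK pathway, was at 128.8 CPM with DMSO and 0.172 CPM with MAPKi, and CHAC1, an amino acid stress gene, was at 10.6 CPM in CTRL medium and 103 CPM in Gln-depleted medium. The non-coding RNA RN7SK took 3.95% to 4.4% of the reads with MAPKi and 1.93% to 2.15% with DMSO. It took 1.99% to 3.79% in Gln-depleted and 1.55% to 2.25% in CTRL medium, higher in each same-numbered pair, and its part in the results was not tested. Values are relative to the mRNAs counted in each library, and bulk RNA cannot tell fewer cells from less RNA per cell.

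The 10 genes together took 0.158% to 0.164% of all reads with DMSO and 0.121% to 0.132% with MAPKi, against 0.171% to 0.193% in CTRL medium and 0.412% to 0.560% in Gln-depleted medium. The share was thus lower with MAPKi than with DMSO in all libraries, and higher in every Gln-depleted library than in every CTRL medium library. NQO1 and TXNRD1 made up 60.6% to 62% of these reads with DMSO. Without them, the other 8 genes took 0.0614% to 0.0632% with DMSO and 0.0587% to 0.0650% with MAPKi, which overlapped, and 0.0623% to 0.0693% in CTRL medium against 0.114% to 0.121% in Gln-depleted medium, which did not. To compare levels between genes, CPM were divided by the length of the MANE Select transcript. On this scale of CPM per kb, NQO1 was highest with DMSO (248 ± 7.79, SD, n = 3), followed by GPX4 at 150 ± 3.33 and TXNRD1 at 93.2 ± 2.21. NFE2L2 (70.3), GSS (51.3), SRXN1 (25.6), KEAP1 (23.2) and GCLC (16) came next, and GCLM (6.18) and HMOX1 (5.35) were lowest, with overlapping libraries for that last pair alone. CTRL medium gave the same order, where NFE2L2 and GSS overlapped as well as GCLM and HMOX1. With MAPKi, HMOX1 moved above GCLM (18.2 against 5.75 CPM per kb), NFE2L2 and TXNRD1 overlapped, and SRXN1 overlapped both KEAP1 and GSS. In Gln-depleted medium TXNRD1 came first at 601 ± 69.3 CPM per kb and overlapped NQO1 at 531 ± 198, and SRXN1 at 171 ± 41 came next, overlapping GPX4 at 151 ± 50.3, which in turn overlapped NFE2L2 at 133 ± 46.5. KEAP1 overlapped GSS there, and HMOX1 overlapped GCLM, at 14.9 and 14.3 CPM per kb.

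**Figure D1:**
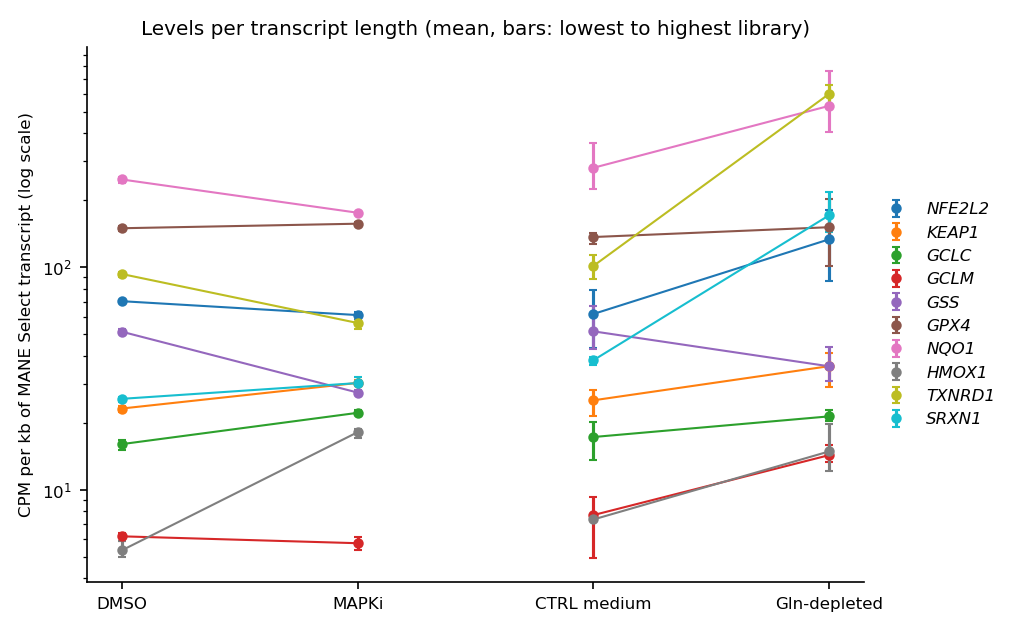
Mean level of each of the 10 genes in CPM per kb of MANE Select transcript on a log scale, with bars from the lowest to the highest of 3 libraries. NQO1 and GPX4 lead with DMSO and CTRL medium, while TXNRD1 leads in Gln-depleted medium.

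The first comparison asked how the 10 genes respond when BRAF and MEK are inhibited. With MAPKi, 4 of the 10 mRNAs were higher (KEAP1, GCLC, HMOX1 and SRXN1), 4 were lower (NFE2L2, GSS, NQO1 and TXNRD1) and 2 were not called (GCLM and GPX4), by edgeR's quasi-likelihood test (Benjamini-Hochberg adjusted p of 0.05 or less). Among all 12593 mRNAs tested, 39.3% were higher and 38.8% were lower, so these shares of 40% each were close to those of all mRNAs. Most of the changes were below 1.5-fold. Only HMOX1 rose, and only GSS and TXNRD1 fell, by more than the study's limit of 1.5-fold in a test against that limit, which 17.2% of mRNAs passed as higher and 18.4% as lower. The median log2 fold change of the 10 was -0.02, against 0.01 over all tested mRNAs. None of these 10 calls or non-calls changed when any 1 of the 6 libraries was omitted. In a fit of all 12 libraries, which takes in the wider spread of the Gln experiment, 2 members were higher and 2 lower, and NFE2L2, KEAP1, NQO1 and SRXN1 were no longer called. The shares of all mRNAs in that fit are not given here.

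**Figure D2:**
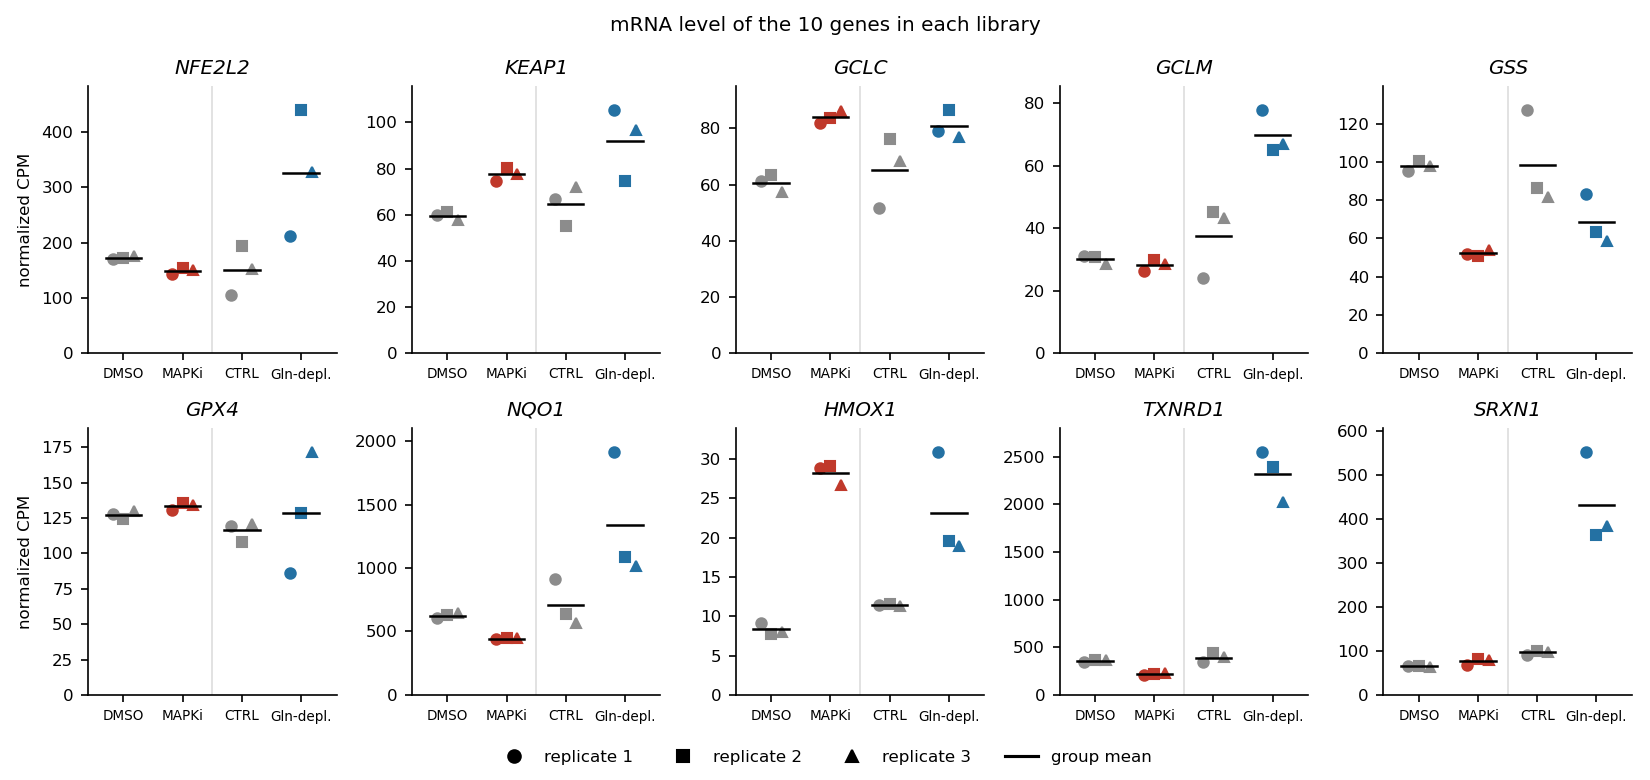
Normalized CPM of each gene in each of the 12 libraries, with the group mean as a line and the replicate number as the symbol, on axes starting at 0. TXNRD1 and SRXN1 stand far above CTRL medium in all 3 Gln-depleted libraries, and HMOX1 stands above its control in both experiments.

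The regulators moved little with MAPKi. NFE2L2 (chromosome 2 of GRCh38, 177218667 to 177392756, minus strand) was at 170.0, 171 and 175 CPM in DMSO replicates 1 to 3 and at 143, 153 and 151 CPM in MAPKi replicates 1 to 3. All MAPKi libraries were below all DMSO libraries, and NFE2L2 changed by -0.21 on the log2 scale (standard error 0.04, adjusted p = 0.00169). KEAP1 (chromosome 19, 10486125 to 10503558, minus strand) was at 59.7, 61.1 and 57.6 CPM with DMSO and at 74.8, 80.0 and 77.7 CPM with MAPKi. The groups did not overlap and KEAP1 was higher by a log2 fold change of 0.38 (standard error 0.04, adjusted p = 2.81e-05).

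The enzymes that build glutathione went in different directions with MAPKi. GCLC (chromosome 6, 53497341 to 53616970, minus strand), the catalytic subunit of glutamate-cysteine ligase, was at 61.4, 63.5 and 57.2 CPM with DMSO and rose to 81.8, 83.7 and 86.3 CPM, a log2 fold change of 0.47 (standard error 0.05, adjusted p = 1.61e-05). GCLM (chromosome 1, 93885199 to 93909456, minus strand), the modifier subunit of the same enzyme, was at 31.2, 30.7 and 28.6 CPM with DMSO and at 26.1, 29.8 and 28.4 CPM with MAPKi. These ranges overlapped, and the log2 fold change of -0.10 had a 95% interval from -0.24 to 0.04 (adjusted p = 0.158), so that a change of the size of GCLC's was outside the interval. GSS (chromosome 20, 34928432 to 34956027, minus strand), glutathione synthetase, carries out the last step and fell in every library, from 95.4, 100.4 and 97.9 CPM to 51.7, 51.0 and 53.7 CPM. Its log2 fold change of -0.91 (standard error 0.04, adjusted p = 6.34e-08) also passed the test against the limit (adjusted p = 1.35e-05). GSS overlaps 138 bases of exons of MYH7B on the other strand, a gene that had at most 53 reads in any library. The setting for strand in the counting was not stated. In GENCODE, NFE2L2 shares 3509 exon bases with HNRNPA3 and 11 with AGPS, both on the other strand. SRXN1 shares 2292 there with a protein-coding gene on its own strand. In RefSeq the span of NFE2L2 overlaps only MIR3128. The part of these overlaps in the counts was not tested.

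GPX4 (chromosome 19, 1103982 to 1106791, plus strand), the selenoenzyme that uses glutathione to reduce lipid peroxides, was at 128, 124 and 129.8 CPM with DMSO and at 131, 136 and 134 CPM with MAPKi. The MAPKi libraries all lay above the DMSO libraries, but by little, and the log2 fold change of 0.07 (95% interval -0.02 to 0.16, adjusted p = 0.14) was not called.

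NQO1 and HMOX1, commonly used as markers of NRF2 activity, moved in opposite directions with MAPKi. NQO1 (chromosome 16, 69706996 to 69726668, minus strand), which reduces quinones, was at 604, 627 and 643 CPM with DMSO and at 437, 447 and 445 CPM with MAPKi, a log2 fold change of -0.50 (standard error 0.04, adjusted p = 4.1e-06). HMOX1 (chromosome 22, 35380361 to 35394214, plus strand), the inducible oxygenase that splits haem, was at 9.17, 7.75 and 8.02 CPM with DMSO, where it rested on at least 274 reads per library, and at 28.8, 29.1 and 26.7 CPM with MAPKi. It was the member with the largest change in this experiment, 3.39-fold (log2 fold change 1.76, standard error 0.08, adjusted p = 6.16e-08), and ranked 549 from the top among the 12593 mRNAs tested.

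The thioredoxin system was also split. TXNRD1 (chromosome 12, 104215779 to 104350307, plus strand), the selenoenzyme that keeps cytosolic thioredoxin reduced, fell from 350.0, 366 and 362 CPM to 204, 218 and 229 CPM. The log2 fold change of TXNRD1 came to -0.73 (standard error 0.05, adjusted p = 1.29e-06) and its adjusted p in the test against the limit was 0.00775. SRXN1 (chromosome 20, 646615 to 653200, minus strand), which repairs over-oxidised peroxiredoxins, went from 66.1, 65.3 and 62.9 CPM to 68.8, 81.4 and 78.5 CPM, a log2 fold change of 0.23 (standard error 0.06, adjusted p = 0.0069). MAPKi replicate 1 was only just above the highest DMSO library for this gene.

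The second comparison asked how the same genes respond when cells are deprived of glutamine. In Gln-depleted medium NFE2L2, HMOX1, TXNRD1 and SRXN1 were higher and the other 6 were not called, by the same edgeR test, while 8.7% of the 12512 mRNAs tested were higher and 9.76% were lower. No member was called lower, none was lower at an unadjusted p under 0.05, and DESeq2 called none lower. DESeq2, run against no change, called 6 members higher, with GCLM and NQO1 in addition (adjusted p = 0.00641 and 0.0194). The shares of 8.7% and 9.76% are those of edgeR, and the shares of all mRNAs by DESeq2 are not given here. TXNRD1 rose 5.93-fold and SRXN1 4.48-fold, and these 2 passed the test against the 1.5-fold limit, which 3.14% of all mRNAs passed as higher and 2.41% as lower. The median log2 fold change of the 10 genes was 0.91, against -0.03 over all mRNAs tested. For 8 of the 10 genes the Gln-depleted libraries all lay above all CTRL medium libraries, as they did for 18.3% of all mRNAs tested.

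The replicate numbers of this experiment mark shared experimental batches, and same-numbered libraries deviated together. With a block for the replicate number, 7 members were higher and 1 was lower, since KEAP1, GCLM and NQO1 were added as higher (adjusted p = 0.00896, 0.0107 and 0.000774 by edgeR) and GSS as lower (adjusted p = 0.00734). The block also raised the shares over all mRNAs tested, to 23.6% higher and 25.2% lower. A term for the experimental batch gave the same member counts, 7 higher and 1 lower. The shares of all mRNAs with that term are not given here. In the second experimental batch alone (2 libraries per group), 6 members were higher (NFE2L2, GCLM, NQO1, HMOX1, TXNRD1 and SRXN1), with log2 fold changes from 0.61 to 2.44, while 17.9% of 12471 mRNAs were higher in that batch. The first batch holds 1 library per group and allows no test.

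**Figure D3:**
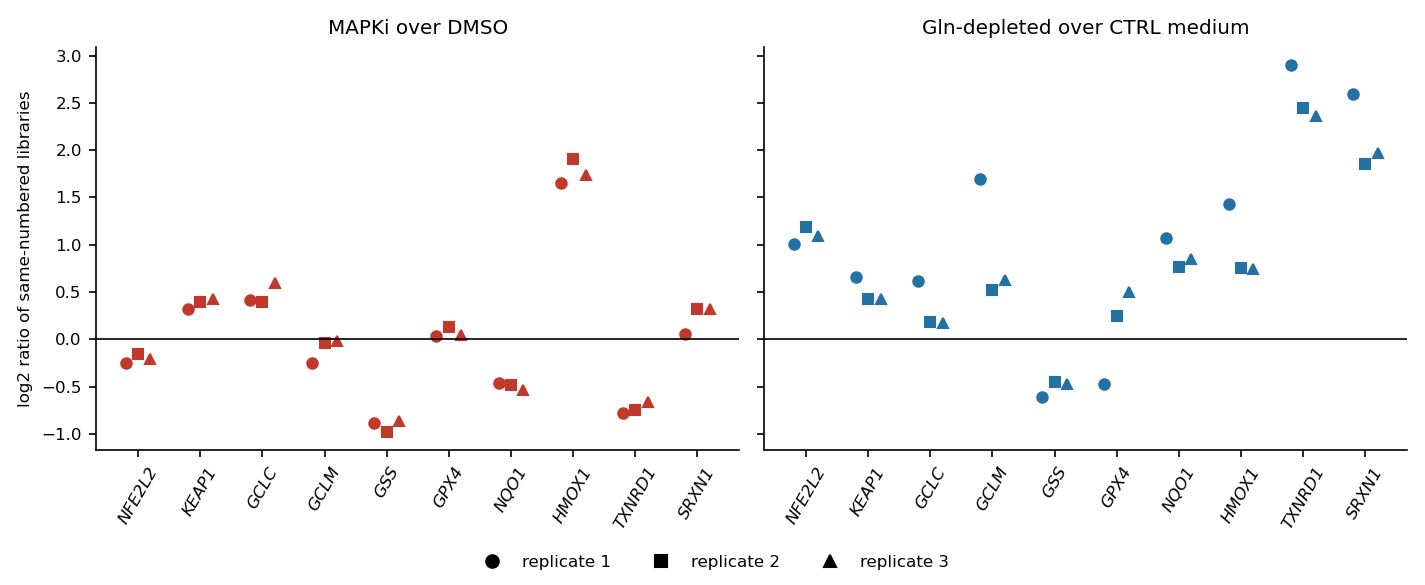
Log2 ratio of CPM between treated and control libraries of the same replicate number for each gene in the MAPKi experiment (left) and the Gln depletion experiment (right). In Gln-depleted medium 8 genes lie above 0 in all 3 ratios, GSS lies below 0 in all 3, and GPX4 is mixed.

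Among the regulators in Gln-depleted medium, NFE2L2 was at 106, 193 and 153 CPM in CTRL medium replicates 1 to 3 and at 212, 439.8 and 327 CPM in Gln-depleted replicates 1 to 3. Its ratio was close to 2-fold in each same-numbered pair (log2 ratios of 1.01, 1.18 and 1.1) although the level itself differed between replicates. The fit gave a log2 fold change of 1.11 (standard error 0.32, adjusted p = 0.0469; 0.000326 with the replicate block). The call was lost without CTRL medium replicate 1, 2 or 3 or without Gln-depleted replicate 2 or 3, with adjusted p from 0.0651 to 0.162. KEAP1 was at 66.8, 55.2 and 72.2 CPM in CTRL medium and at 105, 74.4 and 96.8 CPM in Gln-depleted medium. The ranges were just apart, with a log2 fold change of 0.51 (95% interval 0.04 to 0.98, adjusted p = 0.116; 0.50 in log2 and called with the block).

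Of the glutathione-building enzymes, the subunits of glutamate-cysteine ligase were higher in every Gln-depleted library than in every CTRL medium library, but neither was called without the block and only GCLM was called with it. GCLC was at 51.5, 76.2 and 68.3 CPM in CTRL medium and at 79.2, 86.5 and 77.0 CPM in Gln-depleted medium (log2 fold change 0.31, 95% interval -0.15 to 0.76, adjusted p = 0.3; 0.0759 with the block). GCLM was at 24.1, 45.3 and 43.4 CPM and at 77.8, 64.9 and 66.9 CPM, respectively (log2 fold change 0.89, 95% interval 0.29 to 1.5, adjusted p = 0.0503). The ratio of GCLM was largest in replicate 1 (log2 ratio 1.69, against 0.52 and 0.63), where the CTRL medium library was lowest, and the second batch alone gave 0.61. GSS was at 127, 86.2 and 81.6 CPM in CTRL medium and at 83.4, 63.2 and 58.8 CPM in Gln-depleted medium, lower within each replicate number but overlapping between groups (log2 fold change -0.52, adjusted p = 0.161; -0.51 with the block, where it was called lower).

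GPX4 was at 119.6, 108 and 121 CPM in CTRL medium and at 85.9, 129 and 172 CPM in Gln-depleted medium. It was lower in replicate 1 and higher in replicates 2 and 3, and the log2 fold change of 0.15 (95% interval -0.45 to 0.74, adjusted p = 0.718; 0.696 with the block) changed sign to -0.11 without Gln-depleted replicate 3.

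NQO1 and HMOX1 were both above their controls in Gln-depleted medium. NQO1 was at 912, 637 and 565 CPM in CTRL medium and at 1912, 1083 and 1018 CPM in Gln-depleted medium (log2 fold change 0.92, 95% interval 0.23 to 1.62, adjusted p = 0.0665). Replicate 1 had the highest level in both groups, and the log2 ratios of the pairs were 1.07, 0.77 and 0.85. HMOX1 was at 11.4, 11.6 and 11.3 CPM and at 30.8, 19.6 and 18.9 CPM, a log2 fold change of 1.02 (standard error 0.24, adjusted p = 0.0252; 0.00374 with the block). It was close to constant across the CTRL medium libraries, and its call was lost without CTRL medium replicate 2 or 3 or Gln-depleted replicate 2 (adjusted p of 0.0828, 0.0858 and 0.0569).

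TXNRD1 and SRXN1, both of the thioredoxin system, changed most. TXNRD1 was at 342, 437 and 394 CPM in CTRL medium and at 2545, 2388 and 2023 CPM in Gln-depleted medium, so that the lowest Gln-depleted library was several times above the highest control. The log2 fold change of TXNRD1 reached 2.57 (standard error 0.19, adjusted p = 0.00103), it ranked 152 from the top among the 12512 mRNAs tested, and it stayed between 2.50 and 2.66 when each library was left out. SRXN1 was at 91.6, 100.3 and 97.7 CPM in CTRL medium and at 551, 362 and 383 CPM in Gln-depleted medium, with a log2 fold change of 2.16 (standard error 0.22, adjusted p = 0.00188). In the second batch alone the log2 fold changes were 2.44 for TXNRD1 and 1.95 for SRXN1. EID3 lies within the span of TXNRD1, and LOC107985423 overlaps the span of SRXN1. In Gln-depleted medium they had at most 113 and 75 reads, respectively, against at least 61519 and 11646 for TXNRD1 and SRXN1. With MAPKi LOC107985423 had 63 to 87 reads, a mean of 2.82% of the SRXN1 count, against 1.22% with DMSO.

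The responses to MAPKi and to Gln depletion were then compared directly as a contrast over the 12 libraries, in which edgeR called a difference for 6 of the 10 members (adjusted p of 0.05 or less), against 40.4% of the 12627 mRNAs tested. TXNRD1 differed most, with a log2 fold change that was lower by 3.29 with MAPKi than in Gln-depleted medium (difference of -3.29, standard error 0.17, adjusted p = 1.33e-07). SRXN1 (-1.92, adjusted p = 5.73e-05), NQO1 (-1.41, adjusted p = 0.00775), NFE2L2 (-1.31, adjusted p = 0.00646) and GCLM (-0.99, adjusted p = 0.0107) also responded more strongly upwards to Gln depletion. HMOX1 was the only member called with a larger response to MAPKi, by 0.76 (adjusted p = 0.0378), and this call was lost in 10 of 12 fits that left out a library. No difference was called for KEAP1 (95% interval of the difference -0.60 to 0.37), GCLC (-0.21 to 0.55), GSS (-0.96 to 0.23) and GPX4 (-0.64 to 0.53). These intervals are wide enough to hold differences of the size of the GCLC or KEAP1 responses themselves. With a replicate block within each experiment, GSS was also called (difference of -0.38, adjusted p = 0.00954), as it was without CTRL medium replicate 1 (-0.63, adjusted p = 0.0247).

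**Figure D4:**
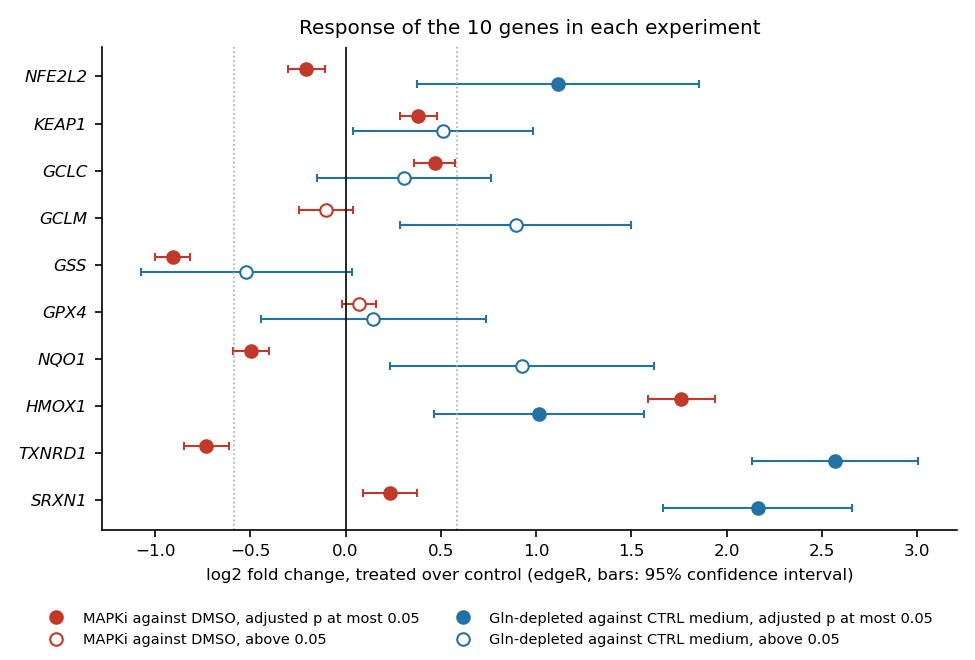
Log2 fold change of each gene with its 95% confidence interval, for MAPKi against DMSO and for Gln-depleted against CTRL medium (filled, adjusted p at most 0.05; dotted lines, a change of 1.5-fold in either direction). NFE2L2 and TXNRD1 were called in opposite directions, HMOX1 and SRXN1 were called higher in both.

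A list of 91 other genes of the same pathways, sorted by role, was examined beside the 10. It was drawn up with earlier results of these data known, so its shares can reflect that choice and are a description. With MAPKi, 83 were tested, of which 41 were higher (49.4%, against 39.3% of all mRNAs) and 31 lower (37.3%, against 38.8%), with a median log2 fold change of 0.16. In Gln-depleted medium 83 were tested, of which 15 were higher (18.1%, against 8.7% of all mRNAs) and 10 lower (12%, against 9.76%), with a median of 0.0021. With the replicate block 25 were higher (30.1%, against 23.6% of all mRNAs) and 24 lower (28.9%, against 25.2%). Counts by role are given for Gln depletion without the block and then with it, and are to be read against these shares of all mRNAs.

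Of 10 regulators, 3 were higher and 6 lower with MAPKi, and 2 were higher and 2 lower in Gln-depleted medium (4 and 2 with the block). Of the small MAF genes, whose products pair with NRF2, MAFF and MAFG were called in the same directions as NFE2L2 in both experiments, whereas MAFK was called in neither (log2 fold changes of -0.01 and 0.18). MAFF went from 40 ± 2.44 to 18 ± 1.8 CPM with MAPKi (SD, n = 3; log2 fold change -1.15, adjusted p = 1.08e-06) and from 56.2 ± 2.80 to 119 ± 22.7 CPM in Gln-depleted medium (1.09, adjusted p = 0.0102). MAFG changed little with MAPKi (-0.12 in log2, adjusted p = 0.0391) and rose in Gln-depleted medium by a log2 fold change of 1.16 (adjusted p = 0.00601). BACH2, a repressor that also pairs with small MAF proteins, fell with MAPKi by a log2 fold change of -1.47 from 2.34 CPM, and NFE2L1, a relative of NRF2, rose by 0.37. RBX1, a subunit of the ligase that degrades NRF2, and NFE2L3 fell in Gln-depleted medium (-0.72 and -0.67) and by similar amounts with MAPKi (-0.72 and -0.71). SQSTM1 rose with MAPKi by a log2 fold change of 1.88, but from 2.39 CPM on its own row, while the table holds a copy row of this gene, so its level is uncertain.

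Of 12 genes for cystine supply and glutathione turnover, 4 were higher and 6 lower with MAPKi, and 5 of 11 tested were higher, with 6 not called, in Gln-depleted medium (5 higher and 2 lower with the block). The median log2 fold change of this group was -0.05 with MAPKi and 0.17 in Gln-depleted medium. SLC7A11, the cystine transporter, fell from 98.2 ± 7.74 to 22.2 ± 2.86 CPM with MAPKi (log2 fold change -2.14, adjusted p = 4.81e-08) and rose from 140.4 ± 84.9 to 1535 ± 472 CPM in Gln-depleted medium (3.45, adjusted p = 0.00471). Its partner subunit SLC3A2 rose in both experiments, by a log2 fold change of 1.86 with MAPKi and 1.87 in Gln-depleted medium. CHAC1, which degrades glutathione, fell with MAPKi (-2.93, adjusted p = 6.49e-07) and rose in Gln-depleted medium (3.28, adjusted p = 0.00188). OPLAH, which recovers glutamate from 5-oxoproline, rose with MAPKi from 2.30 to 9.43 CPM.

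Of 22 enzymes that use glutathione, 12 were higher (54.5%, against 39.3% of all mRNAs) and 5 lower with MAPKi, but only 5 were higher and 4 lower in the test against the 1.5-fold limit. In Gln-depleted medium 1 was higher and 4 were lower (3 and 8 with the block). GSTK1 rose from 72.8 ± 1.64 to 229 ± 17.2 CPM with MAPKi (1.65 in log2, adjusted p = 1.72e-08), and GSTM2, one of a family of near-identical genes, from 1.13 to 3.06 CPM. MGST1, a membrane-bound transferase, and GLRX3, a glutaredoxin, fell by log2 fold changes of -1.99 and -1.18. In Gln-depleted medium GLRX2, a mitochondrial glutaredoxin, rose from 13.3 ± 4.22 to 59.7 ± 12 CPM (2.17, adjusted p = 0.00436), while the transferases GSTA4 (-1.72) and GSTO1 (-0.94) fell.

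Of 13 thioredoxin and peroxide enzymes other than TXNRD1 and SRXN1, 2 were lower in Gln-depleted medium, TXNRD3 (-1.12 in log2) and PRDX4 (-0.77), and 11 were not called (1 higher and 5 lower with the block). With MAPKi, 6 were higher and 7 lower. TXN, the thioredoxin that TXNRD1 reduces, fell with MAPKi from 136 ± 5.30 to 53.0 ± 2.16 CPM (-1.36, adjusted p = 1.62e-08), and PRDX6 fell by -1.14. SOD2, the mitochondrial superoxide dismutase, rose from 91.9 ± 6.32 to 256 ± 12.1 CPM with MAPKi (1.48, adjusted p = 3.97e-08) and PRDX2 by 0.99.

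Detoxifying reductases and exporters, the group that NQO1 belongs to, were higher for 8 and lower for 2 of 13 tested with MAPKi, and higher for 2 and lower for 1 of 14 in Gln-depleted medium (3 and 4 with the block). OSGIN1, an oxidative stress response gene, was at 16.8 ± 1.95 CPM with DMSO and 8.43 ± 0.167 with MAPKi, and at 15.7 ± 1.39 CPM in CTRL medium and 133 ± 37.8 in Gln-depleted medium (log2 fold changes of -0.99 and 3.08, adjusted p = 8.46e-06 and 0.0012). The exporter ABCC2 and the epoxide hydrolase EPHX1 rose with MAPKi (2.04 and 1.11 in log2) and UGDH fell (-0.29), and CBR3, a carbonyl reductase, fell in Gln-depleted medium (-1.23).

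Of the genes for haem and iron, 6 of 7 tested were higher and 1 lower with MAPKi, and 3 of 7 were higher and 1 lower in Gln-depleted medium (5 and 2 with the block). The shares of all mRNAs were 39.3% and 38.8% with MAPKi and 8.7% and 9.76% in Gln-depleted medium. Against the 1.5-fold limit 1 of the 7 was higher and 1 lower with MAPKi, and those called in Gln-depleted medium did not pass it. FTH1, the ferritin heavy chain, was higher in both, with log2 fold changes of 0.70 and 1.44, as HMOX1 was. FTL rose with MAPKi (0.58), and reads of both ferritin genes can be shared with their pseudogenes. BLVRA, which acts on the product of HMOX1, fell with MAPKi (-1.19). In Gln-depleted medium FECH, the last enzyme of haem synthesis, rose (0.83) and TFRC, the transferrin receptor, fell (-0.84). The 6 genes listed as NADPH-producing enzymes also include TKT, a pentose phosphate enzyme that does not itself make NADPH. Of the 6, 2 were higher and 4 lower with MAPKi. In Gln-depleted medium 2 were higher, 0 lower and 4 not called (4 higher and 1 lower with the block). ME1 and IDH1 fell with MAPKi (-1.48 and -0.48) and rose in Gln-depleted medium (0.70 and 1.16), and TKT rose with MAPKi (0.14).

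**Figure D5:**
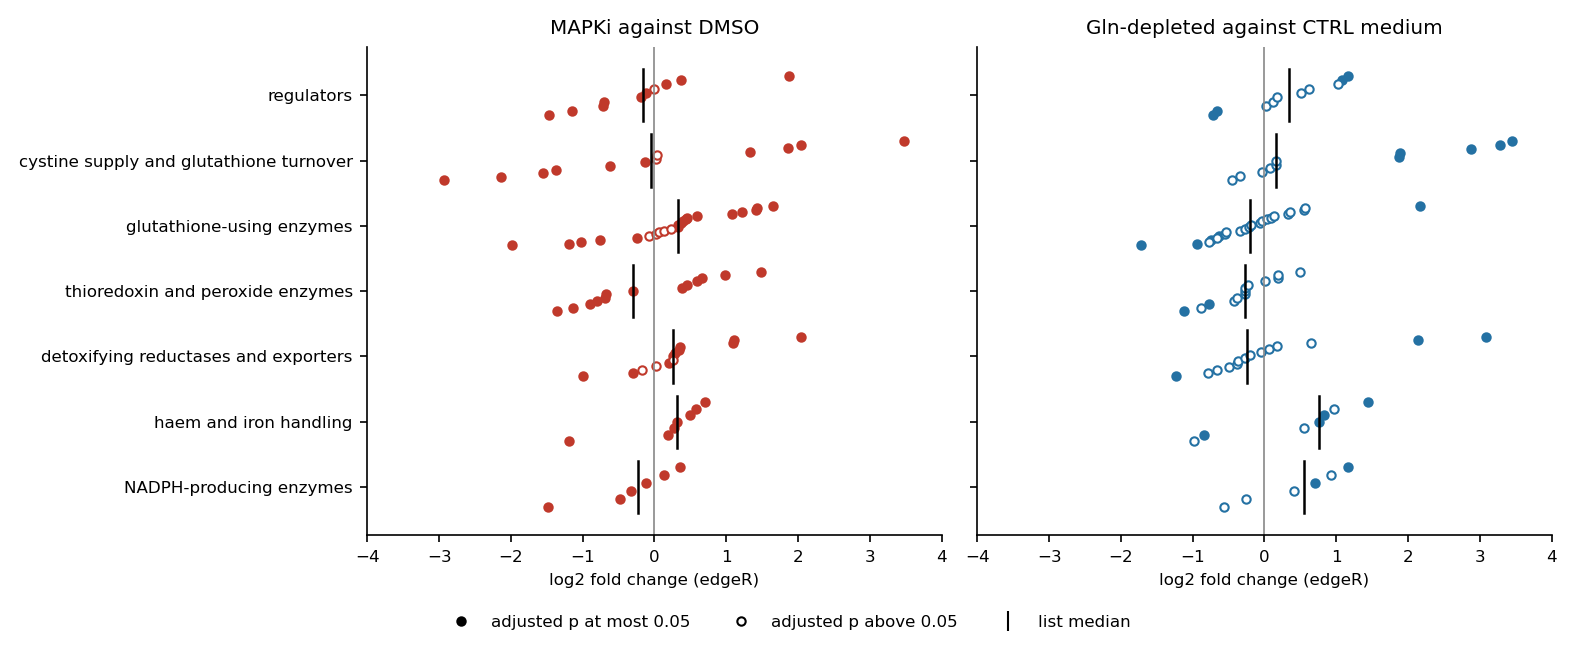
Log2 fold change of each tested gene of the 91, by role, for MAPKi against DMSO (left) and Gln-depleted against CTRL medium (right), with the list median as a line. In Gln-depleted medium the largest rises include those of SLC7A11, CHAC1, OSGIN1 and GLRX2.

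Between the experiments, 12 of the 82 genes of this list tested in both (14.6%) were called in opposite directions, as were 5.29% of the 12291 mRNAs tested in both. The gap between these shares can come from the choice of the list, which was made with earlier results known. Of the 12, 9 were lower with MAPKi and higher in Gln-depleted medium (SLC7A11, CHAC1, CTH, CBS, OSGIN1, MAFF, MAFG, ME1 and IDH1), a pattern that 2.51% of all mRNAs showed and that NFE2L2 and TXNRD1 showed among the 10. As these genes were picked for their opposite calls, the difference between their responses is a description. It was -5.59 in log2 for SLC7A11, -6.20 for CHAC1 and -4.06 for OSGIN1, against -3.29 for TXNRD1. SLC3A2, in contrast, did not show a called difference (95% interval -0.56 to 0.56). Of the 18 genes of the list named for Gln depletion, 8 kept their call in all fits that omitted 1 library (SLC7A11, CHAC1, OSGIN1, GLRX2, GSTA4, CBR3, MAFF and MAFG), and 10 lost it at least once. Of the 27 that the same rule gives for MAPKi, only TKT lost its call, without MAPKi replicate 2 or DMSO replicate 2.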

How the data were processed

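The deposited values are raw read counts per gene, made by the authors with fastp 0.20.1, HISAT2 2.2.1 on GRCh38.p13 and htseq-count (HTSeq 0.13.5) on exons. The labels describe cytoplasmic RNA and the RNA-seq methods total RNA. Every value column was used. Of 44659 genes, 36524 matched a RefSeq symbol and 513 an older symbol, 5082 were copies and 2540 were unmatched. The 10 members and the list of 91 genes were chosen with earlier results of these data known.

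Counts were normalized by TMM within each experiment and tested with edgeR 4.0.16 in R 4.3.3 (quasi-likelihood, two-sided, no other covariate), with p-values adjusted over all tested genes by the Benjamini-Hochberg method. Tested genes were protein-coding and averaged 10 or more normalized counts. A further test was against a 1.5-fold change. The authors used DESeq2 with the 1.5-fold limit. DESeq2 was run here as an alternative (version 1.42.0) without that limit, against no change. The procedure was tested on simulated data. CPM are TMM-normalized, and their scale is set within each experiment. Positions and lengths are those of GENCODE (GRCh38). Beyond the 10 members, genes were named by a rule: per experiment and role, up to 2 rises and 2 falls, the largest among those called, averaging 50 or more normalized counts, with no overlap between groups. CTH, CBS, the values of MAFK, the MAPKi values of MAFG, RBX1 and NFE2L3 and the Gln value of SLC3A2 are given beyond this rule, chosen after their values were seen. One gene that the rule gives is not reported here.

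Same-numbered libraries shared deviations in the Gln experiment (correlations across genes of 0.59, 0.44 and 0.39). The labels place replicate 1 in a first experimental batch and replicates 2 and 3 together in a second. Between replicates 2 and 3 the correlations were 0.149 and 0.0358. Blocked values stand beside the results of this experiment where they change a call or a count. With 31056296 to 40071368 reads per library, the spread between replicates limits precision more than counting does. Figures were drawn with matplotlib 3.10.9.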

Additional observations from a re-analysis of the deposited data

Results flagged for a closer look

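Of the 10 genes, NFE2L2 and TXNRD1 were called in opposite directions in the 2 experiments, as they went in every same-numbered pair of libraries. Of the 12291 mRNAs tested in both, 5.29% were called in opposite directions. Since the contrast uses the same 12 libraries, the difference called for both genes is a description. NQO1 and GCLM also went in opposite directions in every pair. NQO1 was called lower with MAPKi, but was not called in Gln-depleted medium by the main edgeR test (adjusted p = 0.0665, and 0.000774 with the replicate block). GCLM was not called with MAPKi. The calls of NFE2L2 were less firm than those of TXNRD1. Its change of -0.21 with MAPKi was not called in the fit of all 12 libraries. Its call in Gln-depleted medium was lost in 5 of 6 fits that left out 1 library. Those fits had no replicate block, and with the block over all libraries of that experiment its adjusted p was 0.000326 by edgeR. TXNRD1 kept both calls in all such fits. For NFE2L2 the log2 difference (MAPKi minus Gln depletion) was -1.308, and for TXNRD1 it was -3.289. The cause of these differences was not tested.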

How the results depend on the processing

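For the members with MAPKi, the counts of 4 higher and 4 lower were the same under DESeq2 size factors, DESeq2, other limits on the mean count, all genes tested, each library left out and the replicate block. They were 2 higher and 2 lower in a fit of all 12 libraries, and 1 higher and 2 lower in the test against the 1.5-fold limit. In Gln-depleted medium the 4 higher became 7, and the 0 lower became 1, with the replicate block, the experimental batch term, or all 12 libraries in 1 fit, and 2 were higher in the test against the limit. Leaving out 1 library in turn gave from 2 to 4 higher. The members called in the contrast numbered from 5 to 7 over all alternatives. Calls over all tested genes moved as well, so member counts are to be read beside them. With MAPKi they ranged from 2162 to 5703 higher and from 2314 to 5789 lower. In Gln-depleted medium they ranged from 393 to 2957 higher and from 302 to 3157 lower.

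For the list of 91, MAPKi gave 25 higher in a fit of all 12 libraries, and 16 higher and 20 lower against the limit. In Gln-depleted medium it gave 25 higher and 24 lower with the replicate block (in which the 18 named genes and 4 members called without it kept their calls), 25 and 23 with the batch term, 22 lower in a fit of all 12 libraries, 16 lower in the second batch alone, and 7 higher and 1 lower against the limit. With each library left out these numbers ranged from 8 to 15 higher and from 2 to 12 lower.

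Signs changed only for log2 values that were not called: GPX4 in Gln-depleted medium (-0.11 without Gln-depleted replicate 3; from -0.11 to 0.37 over the omitted libraries), and the differences of KEAP1 (0.01 without CTRL medium replicate 2, 0.016 without Gln-depleted replicate 1; range -0.26 to 0.016) and GPX4 (0.02 without CTRL medium replicate 2, 0.21 without Gln-depleted replicate 3; range -0.26 to 0.21). The call of NFE2L2 in Gln-depleted medium was also lost with all genes tested (adjusted p = 0.0502 by edgeR), and that of GCLM was gained with DESeq2 size factors (adjusted p = 0.039). The causes were not tested. In the MAPKi experiment, same-numbered libraries shared deviations only weakly (correlations of 0.0687, 0.058 and 0.0562). Correlations between different numbers ranged from -0.0363 to -0.0218. The replicate block left 4 members higher and 4 lower. The 95% intervals were wider in the Gln experiment than in the MAPKi experiment for each of the 10 genes, so smaller changes could be told from the spread in the latter.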
